A study of Mus musculus with 12 samples.

Results

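The chromatin at 10 cytokine receptor genes was described in thymic invariant natural killer T (iNKT) cells: Il2ra, Il2rb, Il15ra, Il7r, Il4ra, Il18r1, Il18rap, Il12rb1, Il12rb2 and Il21r. A locus was the gene body in GENCODE vM21 with 10 kb on either side, and 102 of the 63309 accessible regions of 500 bp overlapped such a locus, with none shared between receptors. The locus of Il21r held 18 regions, those of Il2ra and Il12rb2 13 each, Il4ra 12, Il2rb 11, Il18r1 10, Il12rb1 9, Il7r 8, Il18rap 7 and Il15ra 1. Regions are named below by the gene and by the distance of their middle from the gene start, positive in the direction of transcription.

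Cytokine receptors are built from chains that are shared between cytokines, so that 1 chain can serve several signals. Il2rb encodes CD122, the chain common to the IL-2 and IL-15 receptors, Il2ra and Il15ra encode the private alpha chains CD25 and IL-15Rα, Il7r encodes CD127 and Il4ra the IL-4 receptor alpha chain. Il12rb1 and Il12rb2 together form the receptor for IL-12, and Il18r1 and Il18rap that for IL-18, a pair of cytokines that drive IFN-γ production in iNKT1 cells, the T-bet+ subset that depends on IL-15. iNKT2 cells are the IL-4 producing subset and iNKT17 cells the RORγt+ subset, which is known for its use of IL-7.

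Omni-ATAC-seq, which uses the Tn5 transposase to mark open chromatin, was carried out on the subsets iNKT1, iNKT2 and iNKT17 from the thymus of C57BL/6 (wild-type) and Hivep3-/- mice, with 2 libraries in each of the 6 groups and 12 libraries in all. Hivep3-/- mice carry a null allele of the zinc finger gene Hivep3 on the C57BL/6 background, and all animals were untreated and 8 to 9 weeks old. The labels describe pooled thymi but number single mice, so that the p-values measure the spread between libraries, whose independence as animals is not given. Subsets were sorted by CD122, ICOS, Izumo1r and CD138, mixed for the transposition and sorted again, this time by ICOS and CD138 alone since the other fluorescence was lost. iNKT1 and iNKT2 nuclei were therefore separated by ICOS only in the second sort, and CD122, the product of the receptor gene Il2rb, was itself a marker of the first.

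Each value is a log2 of normalized transposase insertions per kb, as deposited. The libraries summed to between 1915051 and 1919036 on the linear scale because of the normalization, so their depth is unknown, and the number of distinct values below the median ranged from 73 to 491. Promoters of iNKT1 genes (Tbx21, Ifng, Xcl1, Nkg7 and Klrb1c) summed to 375 to 395 in C57BL/6 iNKT1, 80.5 to 93.8 in iNKT2 and 28.9 to 29.4 in iNKT17 libraries, and those of 6 iNKT17 genes to 260 to 280 in iNKT17 against 18.9 to 24.1 in the others. The 6 iNKT2 promoters were less distinct, with 343 to 362 in iNKT2 against 258 to 276 in iNKT1 and 223 to 238 in iNKT17. Sort markers are among these genes, with Sdc1 (CD138) in the iNKT17 list and Icos and Izumo1r in the iNKT2 list. No promoter region was listed for the B cell or double-positive thymocyte genes searched. The 3 T cell promoters (Cd3e, Cd3d and Cd2) summed to at least 97.7 in every library. Cd2 was low in iNKT17, with linear means of 4.23 in C57BL/6 and 6.32 in Hivep3-/- cells, against 49 and 55.5 in iNKT1. Of the 3 myeloid genes searched, Csf1r and Fcgr1 had no promoter region listed. The third, Cd14, had means between 14.3 and 18.2 in all 6 groups. The promoter of Hivep3 was open in both genotypes (6.50 to 6.72 in C57BL/6 and 6.36 to 6.51 in Hivep3-/- libraries), which does not check the null allele.

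Regions of Il12rb2, Il21r, Il2ra, Il7r, Il18rap and Il2rb that separated subsets, and the Il12rb2 region that differed between genotypes, are printed here because the results below rest on them. Shown are the central 300 bases on the plus strand of GRCm38 (mm10), from introns or upstream of the gene, with capitals marking matches on either strand to 10 short motifs.
Il12rb2 +8.8 kb (intron, chr6:67367191-67367490): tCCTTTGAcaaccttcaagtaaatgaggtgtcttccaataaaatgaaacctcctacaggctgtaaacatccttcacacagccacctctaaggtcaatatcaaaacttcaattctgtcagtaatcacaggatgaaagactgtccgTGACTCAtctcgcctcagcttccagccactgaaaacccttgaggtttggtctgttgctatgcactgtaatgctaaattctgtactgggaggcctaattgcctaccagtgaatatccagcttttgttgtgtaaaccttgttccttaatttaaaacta
Il12rb2 +38.0 kb (intron, chr6:67338000-67338299): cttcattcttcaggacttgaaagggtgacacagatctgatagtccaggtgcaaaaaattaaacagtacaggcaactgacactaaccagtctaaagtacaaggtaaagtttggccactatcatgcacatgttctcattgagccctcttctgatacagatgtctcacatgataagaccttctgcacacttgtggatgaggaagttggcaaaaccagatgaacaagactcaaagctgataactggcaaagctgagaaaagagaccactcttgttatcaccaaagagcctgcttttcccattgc
Il21r -10.1 kb (upstream, chr7:125593192-125593491): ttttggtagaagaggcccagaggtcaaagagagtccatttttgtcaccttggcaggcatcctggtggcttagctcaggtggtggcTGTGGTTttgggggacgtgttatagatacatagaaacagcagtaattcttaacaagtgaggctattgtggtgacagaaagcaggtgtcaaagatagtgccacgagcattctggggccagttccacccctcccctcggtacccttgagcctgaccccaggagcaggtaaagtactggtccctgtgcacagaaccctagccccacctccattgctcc
Il2ra +23.7 kb (intron, chr2:11666322-11666621): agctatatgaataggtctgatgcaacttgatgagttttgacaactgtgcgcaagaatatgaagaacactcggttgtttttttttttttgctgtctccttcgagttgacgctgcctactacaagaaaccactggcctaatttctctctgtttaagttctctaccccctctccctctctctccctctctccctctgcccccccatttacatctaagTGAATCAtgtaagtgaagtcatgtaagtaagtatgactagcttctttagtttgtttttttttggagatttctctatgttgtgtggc
Il7r -6.1 kb (upstream, chr15:9536125-9536424): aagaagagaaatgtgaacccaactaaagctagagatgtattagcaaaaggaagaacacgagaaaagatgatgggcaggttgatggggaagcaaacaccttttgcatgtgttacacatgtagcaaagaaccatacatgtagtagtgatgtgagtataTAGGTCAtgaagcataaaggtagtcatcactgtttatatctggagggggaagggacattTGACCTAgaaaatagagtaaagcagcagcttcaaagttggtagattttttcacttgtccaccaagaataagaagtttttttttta
Il18rap +7.6 kb (intron, chr1:40522783-40523082): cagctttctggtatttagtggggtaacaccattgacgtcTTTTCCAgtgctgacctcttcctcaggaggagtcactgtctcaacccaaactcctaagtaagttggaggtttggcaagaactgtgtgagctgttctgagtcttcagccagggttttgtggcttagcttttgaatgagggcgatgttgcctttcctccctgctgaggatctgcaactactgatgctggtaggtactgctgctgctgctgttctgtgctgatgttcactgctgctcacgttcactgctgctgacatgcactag
Il2rb -7.4 kb (upstream, chr15:78502517-78502816): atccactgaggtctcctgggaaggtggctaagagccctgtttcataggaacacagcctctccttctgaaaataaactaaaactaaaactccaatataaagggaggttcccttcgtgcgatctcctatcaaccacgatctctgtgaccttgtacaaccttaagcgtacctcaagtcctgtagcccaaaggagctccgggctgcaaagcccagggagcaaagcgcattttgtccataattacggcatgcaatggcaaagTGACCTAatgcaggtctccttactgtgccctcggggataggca

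The capitals in Il12rb2 +8.8 kb are a TCF match (TCAAAGG) and a bZIP match (TGANTCA), and the latter motif also lies in Il2ra +23.7 kb. Matches on the minus strand appear as their reverse complement, and no printed matches overlap. Il21r -10.1 kb holds a Runt match (AACCACA), Il18rap +7.6 kb an NFAT match (TTTTCCA), Il7r -6.1 kb 2 matches to a ROR motif (TAGGTCA) and Il2rb -7.4 kb 1. Il12rb2 +38.0 kb held none of the letters searched. Runt matches were found in 22 of the 102 receptor regions and 13.7% of all regions, bZIP in 15 and 11.5%, TCF in 9 and 6.20%, NFAT in 8 and 5.12%, and ROR in 6 and 3.75%. The other motifs were T-box (AGGTGTGA, 1 receptor region and 2.08% of all), ETS (CCGGAAGT, 3 and 2.41%), GATA (10 and 12.9% for the letters AGATAA), STAT (TTCNNNGAA, 13 and 7.95%) and NF-kB (GGGNNTTCC, 8 and 6.47%). A match describes the letters and does not show that a factor binds.

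The receptors differed in how open their promoters were, and that of Il12rb2 varied most between groups. Taking the region at or nearest to each gene start, the group means in C57BL/6 libraries ran from 7.62 to 8.06 at Il2rb, the most open of the 10, from 6.22 to 6.56 at Il4ra and from 5.25 to 6.37 at Il21r. Il18r1 followed with 5.73 to 6.24 and Il2ra with 5.29 to 5.66, while Il15ra (4.79 to 5.17), Il7r (4.71 to 5.14) and Il18rap (4.35 to 4.95) lay close together and Il12rb1 was lower (4.03 to 4.24). Il12rb2 ran from 1.69 to 6.42. Neighbours in this order overlapped in their library values and are not resolved, other than Il2rb above Il4ra and, narrowly, Il2ra above Il15ra. The Il18r1 promoter lies within the annotated body of the neighbouring receptor gene Il1rl1, and 3 regions upstream of Il12rb1 lie in Mast3.

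**Figure D1:**
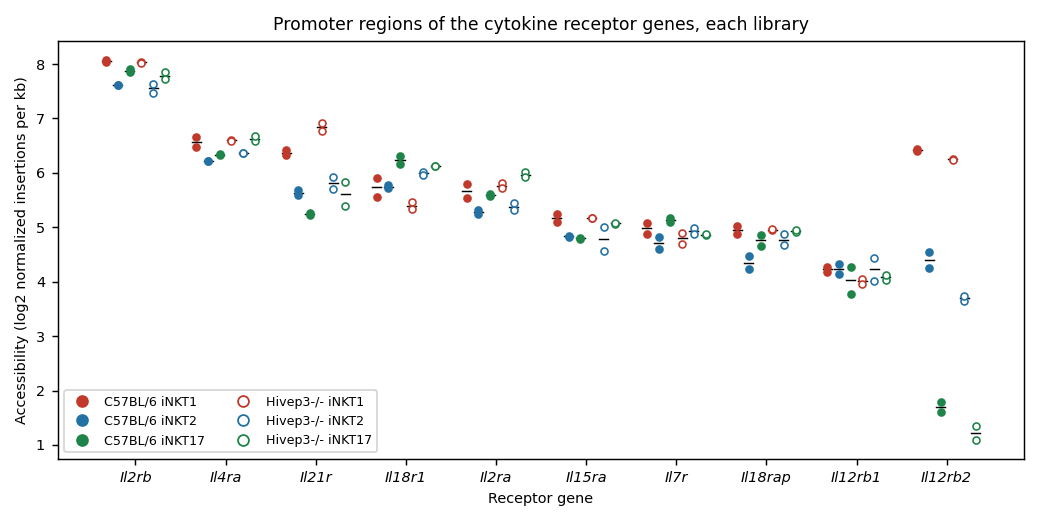
Accessibility (log2 normalized insertions per kb) of the promoter region of each receptor gene, with 1 point per library and a short line at the mean of the 2 libraries of a group. The Il12rb2 promoter spans from 1.10 to 6.44, whereas the Il2rb promoter stays between 7.47 and 8.08.

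Between the C57BL/6 subsets, a region was called when its limma adjusted p was under 0.1 and it changed at least 3-fold, and it was tested when a compared group had a linear mean of at least 5. The 3 comparisons share libraries. Of the receptor regions, 20 of 98 tested were called between iNKT1 and iNKT2 (20.4%, against 16.0% of all regions tested), 31 of 101 between iNKT1 and iNKT17 (30.7% against 20.5%) and 20 of 93 between iNKT2 and iNKT17 (21.5% against 16.2%). In the first of these, 19 regions were higher in iNKT1 and 1 was lower, where 7.33% and 8.71% of all regions were called in these directions. The 19 came from few loci, with 7 at Il12rb2, 6 at Il21r, 4 at Il18rap and 2 at Il4ra, and regions of a locus are not independent. Against iNKT17, iNKT1 was higher at 24 and lower at 7 receptor regions (9.72% and 10.8% of all regions), and iNKT2 was higher at 9 and lower at 11 (7.72% and 8.49%). The median change over the receptor regions tested was 0.57, 0.23 and -0.23 in the 3 comparisons, against 0.01, 0.01 and 0.03 over all regions.

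In all, 39 of the 102 receptor regions were called in at least 1 comparison, and they belonged to Il12rb2, Il21r, Il18rap, Il2ra, Il4ra, Il7r and Il2rb. No region of Il15ra, Il18r1 or Il12rb1 was called. Of the receptor regions within 1000 bp of an annotated start site, 5 of 20 were called in some comparison (25.0%, against 11.8% of all such regions), and of the others 34 of 82 (41.5% against 40.8%). The 5 were all at Il12rb2 (-0.1, +0.7 and +36.5 kb) and Il18rap (-0.9 and +1.2 kb).

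**Figure D2:**
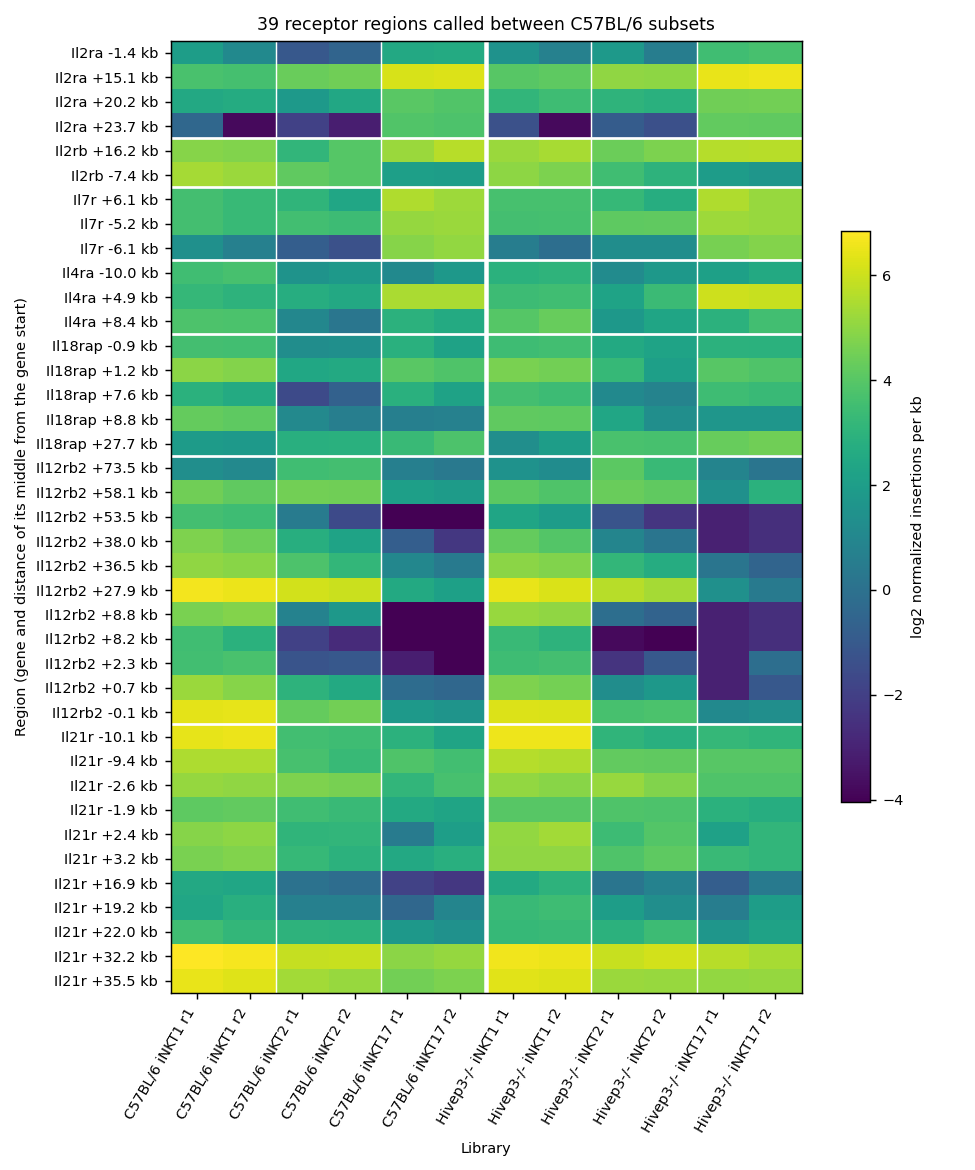
Accessibility (colour, log2 normalized insertions per kb) of the 39 receptor regions called between C57BL/6 subsets, in rows, in each of the 12 libraries, in columns. By group means the Il12rb2 and Il21r rows are brightest in iNKT1, except Il12rb2 +73.5 kb and +58.1 kb, which are brightest in iNKT2, and the Il2ra and Il7r rows are brightest in iNKT17 libraries.

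Il12rb2, the signalling chain that IL-12 receptors add to the common Il12rb1 chain, had the widest range of the 10 loci and fell from iNKT1 through iNKT2 to iNKT17. Its promoter region at -0.1 kb (chr6:67376012-67376511) had values of 6.40 and 6.44 in C57BL/6 iNKT1, 4.25 and 4.54 in iNKT2 and 1.79 and 1.60 in iNKT17 libraries. The 3 groups did not overlap. iNKT1 was 2.03 ± 0.17 (SE) above iNKT2 (adjusted p = 7.48e-07) and 4.73 ± 0.17 above iNKT17 (adjusted p = 5.13e-10), and iNKT2 was 2.70 ± 0.17 above iNKT17 (adjusted p = 6.39e-08). In bulk libraries a lower value can come from fewer cells with the region open or from less opening in each cell, and these cannot be told apart. The promoter sums of the iNKT1 marker genes followed the same order, as given above. Among these genes Klrb1c alone did not, with C57BL/6 linear means of 21.5 in iNKT1, 5.65 in iNKT2 and 11.3 in iNKT17. The part of the marker genes in the order of Il12rb2 was not tested.

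The body of Il12rb2 showed the same order at most positions. At the intronic region +8.8 kb, iNKT1 libraries had 4.66 and 4.83, iNKT2 libraries 0.79 and 1.74, and both iNKT17 libraries were at their lowest value of the table (-4.05). iNKT1 was 3.48 ± 0.47 above iNKT2 (adjusted p = 4.08e-05), and no fold is given against a group at its lowest value. At +8.2 kb the iNKT1 values were 3.48 and 2.89 against -1.94 and -2.69 in iNKT2, a change of 5.50 ± 0.80 (adjusted p = 7.94e-05) that dropped to 1.44, under 3-fold, when 5 was added to the linear values. The iNKT17 libraries were again at the lowest value there and at +53.5 kb, where iNKT1 had 3.58 and 3.45.

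Farther into the gene, +27.9 kb was highly open in both iNKT1 (6.64 and 6.54) and iNKT2 (6.10 and 5.98) and much less in iNKT17 libraries (2.55 and 2.16). The region +38.0 kb was graded, with 4.73 and 4.45 in iNKT1, 2.79 and 2.28 in iNKT2 and -0.78 and -2.29 in iNKT17. Its excess of 4.07 ± 0.49 in iNKT2 over iNKT17 (adjusted p = 1.53e-05) fell under 3-fold with 5 added (1.01) and was not tested without C57BL/6 iNKT2 replicate 1, when no group mean reached 5. A single called region went the other way: at +73.5 kb iNKT2 libraries had 3.49 and 3.57, above iNKT1 (1.35 and 1.07) and iNKT17 (0.66 and 0.35). The change from iNKT2 to iNKT1 there was -2.32 ± 0.35 (adjusted p = 1.14e-04). Of the 13 Il12rb2 regions, 7 of those tested were called higher and 1 lower in iNKT1 than in iNKT2, 10 were called higher in iNKT1 than in iNKT17, and 7 higher in iNKT2 than in iNKT17.

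The promoter regions of other genes whose values followed that of the Il12rb2 promoter most closely over the 12 libraries, among 21173 promoter regions, were those of Hdac7 (Pearson r = 0.995), Jakmip1 (0.992) and Xirp1 (0.991). The 12 points fall into the 6 groups, and these correlations describe the ranking only.

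Il21r, which encodes the receptor for IL-21, also had called regions that were all higher in iNKT1 than in the other subsets. The largest change against iNKT2 was at -10.1 kb (chr7:125593092-125593591), where iNKT1 libraries had 6.45 and 6.53, iNKT2 3.54 and 3.44, and iNKT17 2.96 and 2.30. All 3 groups were separate. iNKT1 was 3.00 ± 0.20 above iNKT2 (adjusted p = 1.32e-07) and 3.86 ± 0.20 above iNKT17 (adjusted p = 5.45e-09). This region lies between the bodies of Il4ra and Il21r, and which gene it belongs to was not tested. At the promoter, the same groups had 6.32 and 6.43, 5.59 and 5.68, and 5.27 and 5.23, so that the excess of iNKT1 over iNKT17 was 1.12 (adjusted p = 9.60e-06) and did not reach 3-fold.

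Within the gene body of Il21r, the intronic region +16.9 kb had 2.52 and 2.40 in iNKT1, 0.06 and -0.16 in iNKT2 and -1.91 and -2.29 in iNKT17. The change of 4.56 ± 0.51 between iNKT1 and iNKT17 (adjusted p = 5.01e-06) was 1.01 with 5 added to these low values. At +2.4 kb the iNKT17 libraries were apart from each other (0.49 and 2.05, against 4.86 and 5.01 in iNKT1 and 3.08 and 3.11 in iNKT2), and the excess of iNKT2 over iNKT17, 1.83 ± 0.41 (adjusted p = 2.19e-03), was 1.05 without C57BL/6 iNKT17 replicate 1 and so not called. Of 18 regions tested, 6 were called higher in iNKT1 than in iNKT2 and 11 higher than in iNKT17, and none lower.

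Il2ra and Il7r, which encode the receptor chains CD25 and CD127, showed the reverse pattern, with called regions that were highest in iNKT17. At Il2ra +23.7 kb (chr2:11666222-11666721, intron) the iNKT17 libraries had 3.87 and 3.80. The iNKT1 libraries had -0.42 and -3.79, the latter being the lowest value of its library, and the iNKT2 libraries -1.94 and -3.12. The iNKT17 group was thus separate from both others, whose own libraries differed widely. The changes were -5.94 ± 0.99 for iNKT1 against iNKT17 (adjusted p = 1.86e-04) and -6.37 ± 0.99 for iNKT2 against iNKT17 (adjusted p = 1.38e-04).

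A more open intronic region of Il2ra, +15.1 kb, had 3.71 and 3.62 in iNKT1, 4.35 and 4.47 in iNKT2 and 6.19 and 6.28 in iNKT17. The groups were separate, and the change from iNKT17 to iNKT1 was -2.58 ± 0.12 (adjusted p = 2.26e-09). The Il2ra promoter stayed between 5.25 and 5.80 in the 6 C57BL/6 libraries, and its iNKT17 and iNKT1 means differed by 0.07 (adjusted p = 0.619). Against iNKT17, 2 Il2ra regions of 13 tested were called lower in iNKT1 (15.4%, against 10.8% of all regions). In iNKT2, 4 of 13 were called lower than in iNKT17 (30.8% against 8.49%).

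At Il7r -6.1 kb (chr15:9536025-9536524) the iNKT17 libraries had 4.87 and 5.06, the iNKT1 libraries 1.43 and 0.71 and the iNKT2 libraries -0.78 and -1.35, with no overlap between the groups. The change was -3.89 ± 0.35 for iNKT1 against iNKT17 (adjusted p = 8.29e-07) and -6.03 ± 0.35 for iNKT2 against iNKT17 (adjusted p = 4.17e-08). The upstream region -5.2 kb and the intronic region +6.1 kb were also called in both comparisons, with changes against iNKT17 of -1.72 and -1.67 at -5.2 kb and -1.99 and -2.68 at +6.1 kb. The Il7r promoter was between 4.61 and 5.18 in these libraries and was not called.

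**Figure D3:**
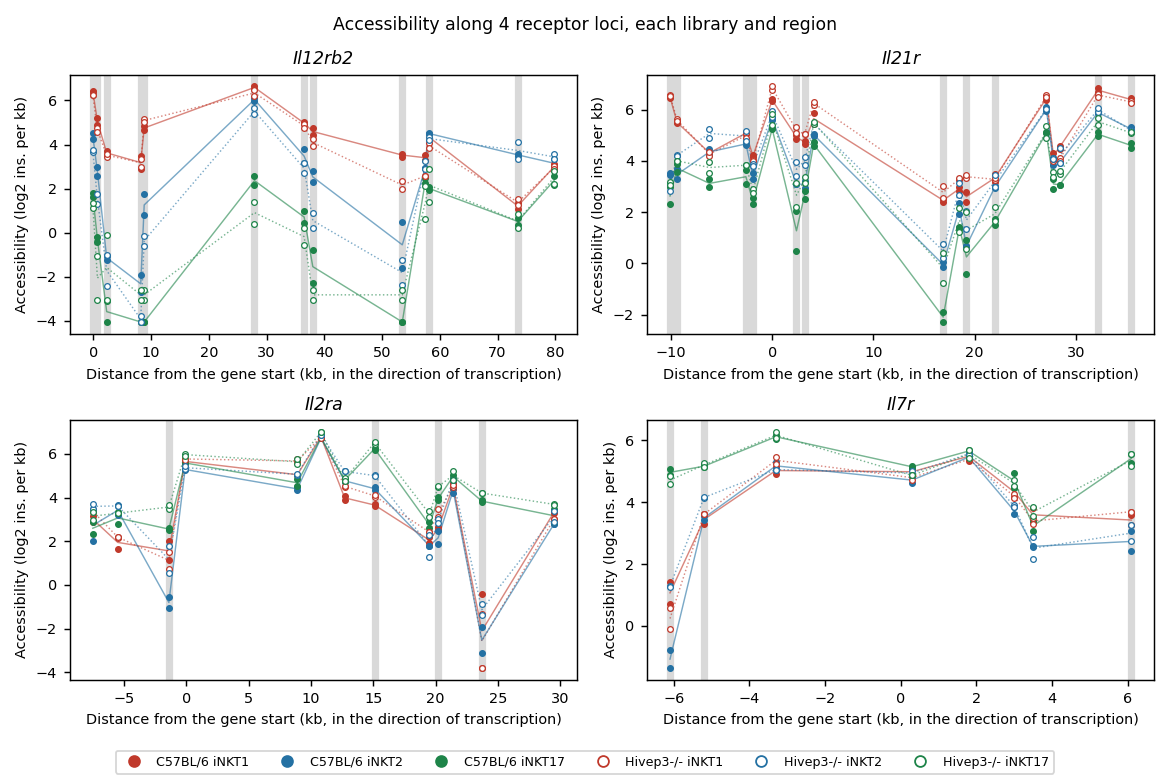
Accessibility (log2 normalized insertions per kb) of every region along Il12rb2, Il21r, Il2ra and Il7r against its distance from the gene start in kb, with 1 point per library, filled for C57BL/6 and open for Hivep3-/-, lines through the group means (solid and dotted) and grey bars at regions called between C57BL/6 subsets. Subsets lie together at the promoters of Il2ra and Il7r, and iNKT17 lies apart at Il2ra +23.7 kb and Il7r -6.1 kb. At the Il12rb2 promoter all 3 subsets are apart, while iNKT1 and iNKT2 lie close together at +58.1 kb and +79.8 kb.

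Il4ra, the chain that binds IL-4, had called regions of both kinds around a promoter that was open in all subsets (6.21 to 6.66). The intronic region +4.9 kb was higher in iNKT17 (5.45 and 5.44) than in iNKT1 (3.20 and 2.98) or iNKT2 (2.72 and 2.52), with changes of -2.35 ± 0.27 (adjusted p = 7.47e-06) and -2.82 ± 0.27 (adjusted p = 2.42e-06) against iNKT17. The region +8.4 kb was low in iNKT2 instead, with 1.00 and 0.21 against 3.79 and 3.77 in iNKT1 and 2.96 and 2.62 in iNKT17. iNKT1 was above iNKT2 by 3.17 ± 0.32 there (adjusted p = 3.67e-06), or 1.51 with 5 added. At -10.0 kb iNKT1 libraries had 3.50 and 3.66, above iNKT2 (1.55 and 1.79) and iNKT17 (1.10 and 1.74), and the latter groups overlapped.

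The IL-18 receptor genes, which are neighbours on chromosome 1, differed from each other. Il18rap, the accessory chain, was lowest in iNKT2: at the intronic region +7.6 kb the iNKT2 libraries had -1.59 and -0.67, against 2.89 and 2.62 in iNKT1 and 2.87 and 2.24 in iNKT17. The iNKT1 and iNKT17 values overlapped, and iNKT2 was separate from both, with a change of 3.89 ± 0.35 for iNKT1 against iNKT2 (adjusted p = 1.39e-06) and -3.69 ± 0.35 for iNKT2 against iNKT17 (adjusted p = 1.94e-06). With 5 added both fell under 3-fold (1.10 for the first), and without C57BL/6 iNKT17 replicate 1 the second was not tested. At the exonic region +8.8 kb, in contrast, iNKT1 (4.26 and 4.13) was above both iNKT2 (1.06 and 0.61) and iNKT17 (0.66 and 0.74), by 3.36 ± 0.33 (adjusted p = 2.88e-06) and 3.50 ± 0.33 (adjusted p = 1.11e-06). The exonic region +27.7 kb was instead lower in iNKT1 (1.91 and 1.78) than in iNKT17 (3.35 and 3.78), with a change of -1.72 (adjusted p = 6.01e-05).

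None of the 10 regions of Il18r1, the ligand-binding chain, was called. Its promoter had 5.91 and 5.56 in iNKT1, 5.78 and 5.72 in iNKT2 and 6.31 and 6.17 in iNKT17, and iNKT1 was below iNKT17 by a change of -0.51 (adjusted p = 1.96e-03). The same held for Il12rb1 and Il15ra. The Il12rb1 promoter had values between 3.78 and 4.32 in all 6 libraries, with adjusted p between 0.405 and 0.980, and that of Il15ra between 4.78 and 5.24. The upstream region Il12rb1 -1.7 kb, with 5.19 and 5.31 in iNKT1 and 6.76 and 6.81 in iNKT17, had a change of -1.53 ± 0.10 (adjusted p = 3.36e-08), just under the 3-fold threshold.

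Il2rb is read with the sort in mind, since CD122 on the surface was used to select iNKT1 cells. Its promoter hardly separated the subsets, with 8.04 and 8.08 in iNKT1, 7.62 and 7.62 in iNKT2 and 7.85 and 7.91 in iNKT17. These groups did not overlap, but the largest change among them was 0.44 (adjusted p = 7.50e-05). The region -7.4 kb (chr15:78502417-78502916) did separate them, with 5.37 and 5.19, 4.20 and 3.97, and 2.09 and 2.00. iNKT1 was 3.23 ± 0.21 above iNKT17 (adjusted p = 4.80e-08) and iNKT2 was 2.03 ± 0.21 above it (adjusted p = 4.81e-06), the latter becoming 1.26 with 5 added. The exonic region +16.2 kb was lower in iNKT2 (3.13 and 3.96) than in iNKT17 (5.22 and 5.65), with a change of -1.90 ± 0.22 (adjusted p = 1.33e-05).

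Most subset differences were seen again in the Hivep3-/- libraries, which are separate from the C57BL/6 ones. In Hivep3-/- cells, 18 of 98 receptor regions were called when iNKT1 was set against iNKT2 (18.4%, against 17.3% of all regions tested), 26 of 100 when it was set against iNKT17 (26.0% against 19.3%) and 12 of 93 for iNKT2 against iNKT17 (12.9% against 15.6%). Of these, 14 were called in the same direction in C57BL/6 for the first comparison (70.0% of the 20 C57BL/6 and 77.8% of the 18 Hivep3-/- calls), 24 for the second (77.4% of 31 and 92.3% of 26) and 11 for the last (55.0% of 20 and 91.7% of 12). No region was called in opposite directions, and every C57BL/6 call had the same sign in Hivep3-/- libraries. Across the 102 regions, which are not independent replicates, the changes in both genotypes had Pearson correlations of 0.885, 0.969 and 0.901. The agreement between genotypes was not computed over all regions, so it is not shown to be particular to the receptor loci.

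Values by library in Hivep3-/- cells follow for 4 of these regions. The Il12rb2 promoter had 6.26 and 6.24 in Hivep3-/- iNKT1, 3.65 and 3.74 in iNKT2 and 1.10 and 1.35 in iNKT17. Il21r -10.1 kb had 6.57 and 6.55, 3.08 and 2.83, and 3.19 and 3.06, so that iNKT1 was far above the others while the iNKT2 and iNKT17 values overlapped. Il2ra +23.7 kb had -1.35 and -3.79, -0.88 and -1.38, and 4.21 and 4.20, with iNKT17 again alone at the top. Il7r -6.1 kb had 0.57 and -0.10, 1.29 and 1.27, and 4.59 and 4.83. There the change for iNKT2 against iNKT17 was -3.43 ± 0.35 (adjusted p = 4.44e-06), smaller than the -6.03 of C57BL/6 cells, and iNKT1 rather than iNKT2 had the lowest values.

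**Figure D4:**
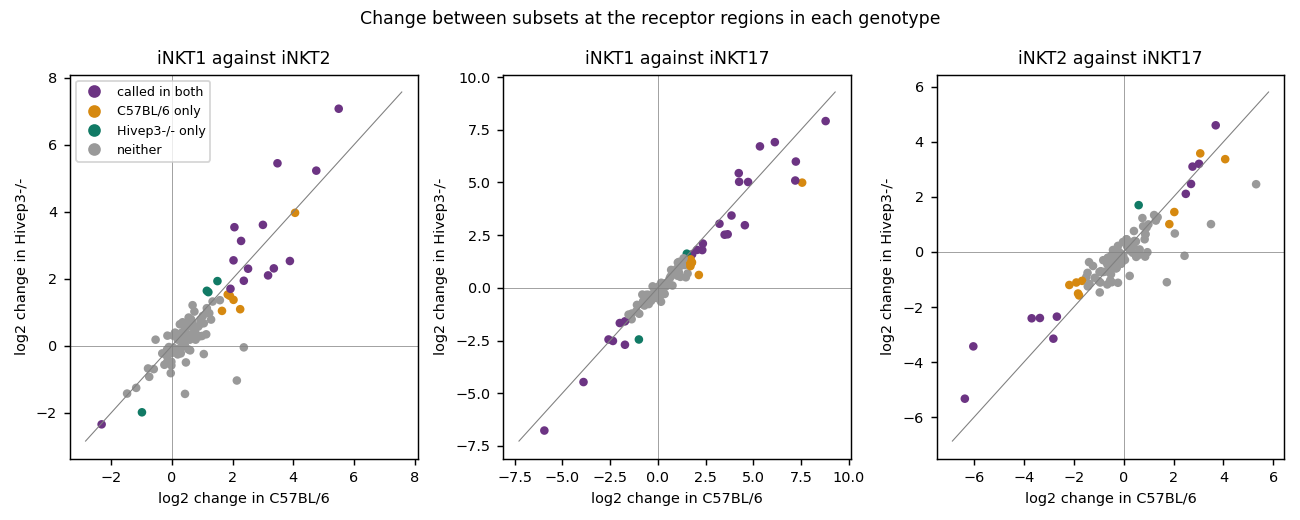
Log2 change between subsets in Hivep3-/- (vertical) against C57BL/6 libraries (horizontal) for the 102 receptor regions, with the line of equal change and colours for calls in both, in 1 or in neither genotype. The 14, 24 and 11 regions called in both have the same sign in both genotypes, and no called region lies in an opposite quadrant. Some lie well off the line, such as Il7r -6.1 kb for iNKT2 against iNKT17.

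The genotypes were then compared within each subset. At the 3-fold threshold, 0 of 96 receptor regions tested were called in iNKT1 (1.15% of all regions), 1 of 88 in iNKT2 (1.68%) and 0 of 87 in iNKT17 (0.271%). In limma, 16, 34 and 36 of these receptor regions had an unadjusted p under 0.05, where 17.8%, 25.3% and 15.8% of all regions did. The single called region was Il12rb2 +38.0 kb, printed above, which had 2.79 and 2.28 in C57BL/6 and 0.90 and 0.20 in Hivep3-/- iNKT2 libraries. The groups did not overlap and the change was -1.98 ± 0.49 (adjusted p = 0.0208). The call was lost with 1 added to the linear values (-1.45) or 5 (-0.74) and without Hivep3-/- iNKT2 replicate 2 (-1.63, adjusted p = 0.121), and the region was not tested without C57BL/6 iNKT2 replicate 1 (-1.73). Without C57BL/6 iNKT2 replicate 2 or Hivep3-/- iNKT2 replicate 1, 3 regions were called in iNKT2, and without C57BL/6 iNKT17 replicate 2 or Hivep3-/- iNKT17 replicate 1, 2 and 3 regions in iNKT17.

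Smaller changes were then counted. Without the fold threshold, 10 receptor regions had an adjusted p under 0.1 in iNKT1 (10.4% of those tested, against 9.42% of all regions), 28 in iNKT2 (31.8% against 16.4%) and 16 in iNKT17 (18.4% against 4.65%). The iNKT1 share was near that of all regions. Nearly all were higher in Hivep3-/- cells, with 10, 25 and 15 regions, where 5.49%, 8.26% and 2.66% of all regions were higher. In iNKT1 these numbers rested on single libraries, with 1 region left without either C57BL/6 replicate 1 or Hivep3-/- replicate 2, 3 without Hivep3-/- replicate 1 and 5 without C57BL/6 replicate 2. In iNKT2 there were 11 without C57BL/6 replicate 1 and 17 without C57BL/6 or Hivep3-/- replicate 2, and in iNKT17 there were 4 without C57BL/6 replicate 1 and 5 without Hivep3-/- replicate 2. With the replicate number as a block, 15, 35 and 25 regions passed in iNKT1, iNKT2 and iNKT17. The sign of every one of these changes stayed the same in these fits. The direction of the regions passing was less one-sided in other fits. With the compared groups only, 15 were higher and 6 lower in iNKT1, and 16 and 5 in iNKT2. With 5 added to the linear values, these were 14 and 5 in iNKT1 and 26 and 6 in iNKT2. By gene, the regions that were higher in Hivep3-/- iNKT2 cells included 5 of 10 tested at Il2ra, 5 of 10 at Il4ra, 4 of 16 at Il21r, 4 of 11 at Il2rb and 3 of 5 at Il18rap, and those in iNKT17 cells 6 of 12 at Il4ra, 4 of 14 at Il21r and 3 of 13 at Il2ra. No Il12rb2 or Il15ra region passed as higher in any subset. The number of distinct values below the median, a sign of depth, also differed between genotypes. It was lower in Hivep3-/- iNKT2 (91 and 118) and iNKT17 (85 and 73) and higher in Hivep3-/- iNKT1 libraries (227 and 491) than the 134 to 219 of all C57BL/6 libraries, and its part in the changes was not tested. The median change over receptor regions was 0.01, 0.19 and 0.28, against -0.02, 0.00 and -0.01 over all regions.

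The 3 regions that passed this criterion in all 3 subsets were chosen after their values were seen: Il4ra +9.3 kb, Il2ra +8.9 kb and Il21r +4.1 kb, each in an intron and each higher in Hivep3-/- cells. The share of all regions that passed in all 3 subsets was not counted, so their number cannot be set against it. Il4ra +9.3 kb had 4.98 and 5.17 in C57BL/6 and 5.78 and 5.93 in Hivep3-/- iNKT1 libraries, 3.80 and 4.10 against 5.35 and 5.68 in iNKT2, and 5.30 and 5.50 against 6.11 and 6.45 in iNKT17. The genotypes did not overlap in any subset. The changes were 0.78 ± 0.16 (adjusted p = 0.0105), 1.56 ± 0.16 (adjusted p = 1.31e-04) and 0.88 ± 0.16 (adjusted p = 0.0154), the iNKT2 change lying just under 3-fold. The change in iNKT1 was smaller than that in iNKT2 by a difference of -0.79 ± 0.22 (adjusted p = 0.0563).

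Il2ra +8.9 kb had 5.04 and 5.05 against 5.61 and 5.75 in iNKT1, 4.34 and 4.47 against 5.04 and 5.09 in iNKT2, and 4.52 and 4.84 against 5.54 and 5.75 in iNKT17. The changes were 0.63, 0.66 and 0.96, each with an SE of 0.13 (adjusted p = 0.0133, 0.00742 and 0.00515). Il21r +4.1 kb changed by 0.60 (adjusted p = 0.0172), 0.44 (adjusted p = 0.0515) and 0.84 (adjusted p = 0.00875). Summed over a locus on the linear scale, the 12 Il4ra regions went from 554 ± 4.27 (SD, n = 2) to 645 ± 11.7 in iNKT1, from 365 ± 8.98 to 483 ± 9.86 in iNKT2 and from 480 ± 8.76 to 643 ± 33.1 in iNKT17, as a description with no test. The 13 Il2ra regions went from 281 ± 3.29 to 319 ± 1.36, from 270 ± 9.07 to 336 ± 2.26 and from 383 ± 13.0 to 488 ± 1.95.

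In iNKT2, 3 regions were lower in Hivep3-/- cells, and each of them was among those that were highest in iNKT1: Il12rb2 +38.0 kb, the Il12rb2 promoter (-0.69 ± 0.17, adjusted p = 0.0186) and Il2rb -7.4 kb (-0.83 ± 0.21, adjusted p = 0.0251). The iNKT1 marker promoters moved with them, their sum being 80.5 to 93.8 in C57BL/6 and 44.7 to 45.3 in Hivep3-/- iNKT2 libraries. The means were lower at Ifng (28.2 and 6.64), Nkg7 (13.5 and 2.75), Xcl1 (16.0 and 8.09) and Tbx21 (23.9 and 19.5) and higher at Klrb1c (5.65 and 8.03). Their part in the result was not tested. In iNKT17, Il12rb2 +27.9 kb was lower (2.55 and 2.16 against 1.41 and 0.40) with a change of -1.45 ± 0.25 (adjusted p = 0.0130).

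**Figure D5:**
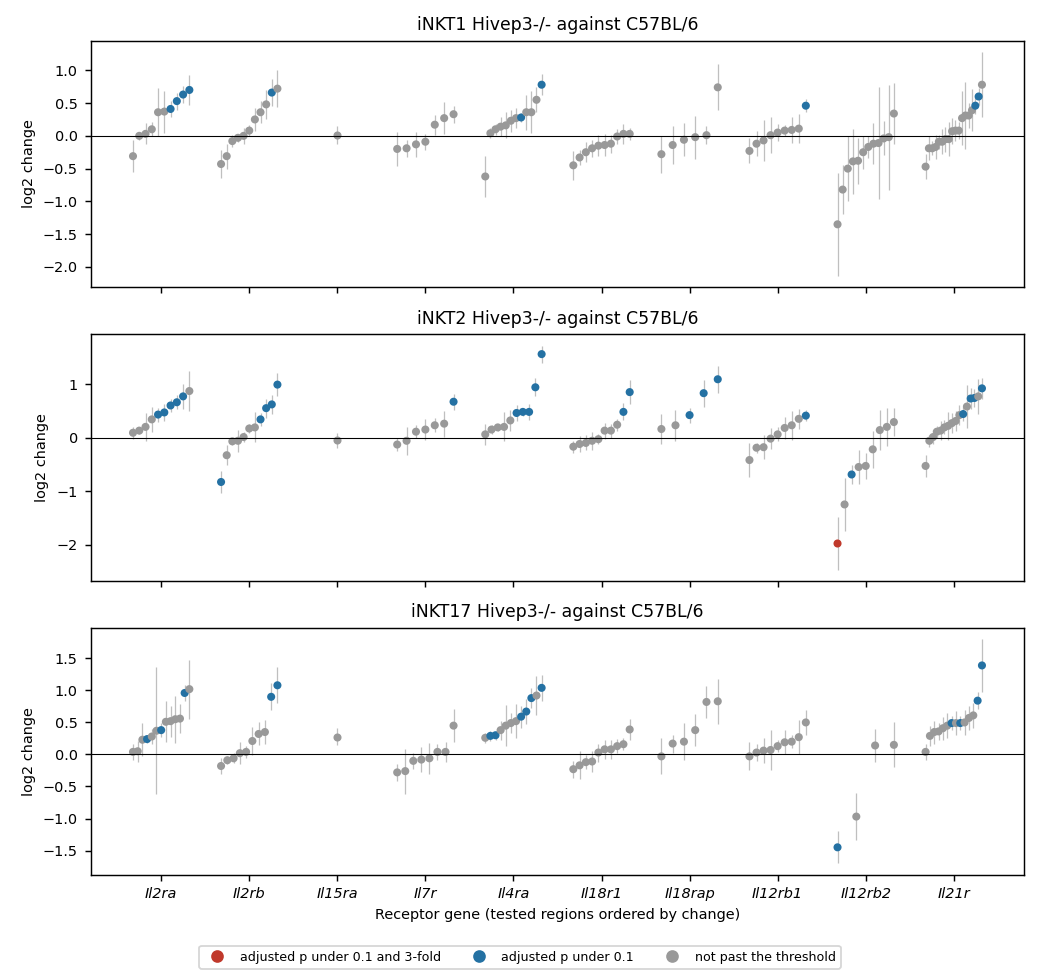
Log2 change from C57BL/6 to Hivep3-/- with its SE for each tested receptor region, grouped by gene, in iNKT1, iNKT2 and iNKT17 cells. Coloured points passed an adjusted p of 0.1, of which 10, 25 and 15 lie above 0, and 1 region, Il12rb2 +38.0 kb in iNKT2, also passed 3-fold.

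Interaction terms compared the genotype change of one subset with that of another. For iNKT1 and iNKT2, 1 receptor region of 99 was called (3.06% of all regions), for iNKT1 and iNKT17 0 of 101 (1.42%) and for iNKT2 and iNKT17 1 of 95 (1.02%), and 23, 18 and 22 had an unadjusted p under 0.05 in limma, where 20.8%, 14.2% and 14.9% of all regions did. The region of the last comparison was Il7r -6.1 kb, where Hivep3-/- iNKT2 libraries had 1.29 and 1.27 against -0.78 and -1.35 in C57BL/6 iNKT2, while iNKT17 libraries had 4.59 and 4.83 against 4.87 and 5.06. The linear iNKT2 means were 2.42 in Hivep3-/- and 0.487 in C57BL/6, both under the level of 5 that a region needed, so the region was not tested between genotypes within iNKT2 and entered the interaction through iNKT17 (26.3 and 31.3). The difference between the changes was 2.60 ± 0.50 (adjusted p = 0.0255), was called without each library in turn, and fell under 3-fold with 1 (1.45) or 5 (0.65) added. The promoter sum of the iNKT17 marker genes was 17.7 to 20.3 in Hivep3-/- and 19.0 to 24.1 in C57BL/6 iNKT2 libraries. Most of this sum came from Sdc1, with means of 13.8 and 14.1. The part of iNKT17 marker genes in the result was not tested. The other region was Il12rb2 +8.8 kb, with 5.15 and 5.03 in Hivep3-/- iNKT1 and -0.13 and -0.59 in Hivep3-/- iNKT2. Its linear iNKT2 means (0.789 in Hivep3-/- and 2.53 in C57BL/6) were also under 5, and it entered through iNKT1 (34.2 and 26.9). The difference of 1.97 ± 0.66 (adjusted p = 0.0995) was called without C57BL/6 iNKT2 replicate 1 (2.44) but not without any other of the 8 libraries, and it fell under 3-fold with 1 (1.28) or 5 (0.67) added.

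Other genes of these pathways were counted in the same way. Of 13 signalling partners (Il2rg, Jak1, Jak2, Jak3, Tyk2, Myd88, Irak1, Irak4, Traf6, Cish, Socs1, Socs2 and Socs3), whose loci held 109 regions, 8 regions were called higher and 4 lower in C57BL/6 iNKT1 than in iNKT2, 8 higher and 2 lower than in iNKT17, and 5 higher and 6 lower in iNKT2 than in iNKT17. These were 12 of 107 tested (11.2%), 10 of 105 (9.52%) and 11 of 102 (10.8%), below the 16.0%, 20.5% and 16.2% of all regions. At Jak1, the kinase that binds several of these receptors, the intronic region +88.9 kb in iNKT1 cells was 3.48 above iNKT2 (adjusted p = 1.44e-06) and 4.73 above iNKT17 (adjusted p = 4.80e-08). At Cish, a feedback inhibitor of STAT5 signalling, the downstream region +13.3 kb in iNKT1 was 3.94 above iNKT17 (adjusted p = 9.64e-08). At Jak3 -0.7 kb, the kinase of the common gamma chain, iNKT1 was below iNKT17 (-2.87, adjusted p = 1.00e-07). Between genotypes, 2 of 107 partner regions tested were called in iNKT1 (1.87%, against 1.15% of all regions). In iNKT2 these were 4 of 103 (3.88% against 1.68%), and in iNKT17 0 of 101 (against 0.271%).

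The loci of 15 other cytokine receptors (Il1rl1, Il6ra, Il6st, Il9r, Il10ra, Il10rb, Il17ra, Il17rb, Il17re, Il23r, Il27ra, Ifngr1, Ifngr2, Tgfbr1 and Tgfbr2) held 153 regions. Of these, 20 were called higher and 22 lower in iNKT1 than in iNKT2, 25 higher and 26 lower than in iNKT17, and 16 higher and 24 lower in iNKT2 than in iNKT17. These were 42 of 133 tested (31.6%), 51 of 142 (35.9%) and 40 of 142 (28.2%), above the shares of all regions. The promoter of Il23r, the IL-23 receptor gene that was also in the iNKT17 marker list, had linear means of 0.355 in iNKT1, 0.0723 in iNKT2 and 30.6 in iNKT17. Downstream of Ifngr1, the IFN-γ receptor, iNKT1 was 6.00 above iNKT2 at +19.8 kb (adjusted p = 7.90e-06). Between genotypes, 0 of their tested regions were called in iNKT1, against 1.15% of all regions. In iNKT2 3 were called (2.40% against 1.68%), and in iNKT17 0 (against 0.271%). These genes were singled out after their values were seen.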

How the data were processed

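Omni-ATAC-seq of 12 libraries was analysed, grouped by genotype and subset from the sample labels. Per the study's methods and the submitters' processing notes, reads were trimmed with Trimmomatic 0.39 and mapped to mm10 in the ENCODE pipeline, peaks were merged into regions of 500 bp, and insertions were counted with chromVAR and transformed by voom. The values deposited by the authors are log2 insertions per kb, and 0 columns lacked a sample. The equal library sums and shared upper quantiles show a normalization between libraries, which hides depth and makes every change relative to the other regions. The coarse lowest values limit what can be said of closed regions.

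Group means of all 12 libraries were fitted to all 63309 regions in limma 3.58.1 (R 4.3.3), with eBayes and a mean-variance trend (6 residual and 7.17 prior degrees of freedom). A comparison tested the regions whose linear mean reached 5 in at least 1 of its groups, with Benjamini-Hochberg adjustment over all of them. A call required a change of 3-fold or more and an adjusted p below 0.1, the thresholds of the study. With 2 libraries a group, an exact two-sided permutation test cannot go below p = 0.333, so none was used. The fit was tested on simulated data (random seed 1).

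The receptor genes, gene lists and motifs were chosen with earlier results of these data known. Named regions are each receptor's promoter region, its most changed called region in each C57BL/6 comparison, and every region called between genotypes or in an interaction. Other regions described were chosen after their values were seen. Sequences and motif matches come from the central 300 bp in GRCm38.p6. Coordinates are 1-based.

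Replicate numbers come from the titles, which number the mice. Deviations of the 3 subsets of a genotype from their group means correlated with 0.120 to 0.167 between equal numbers, and those of a subset between genotypes with 0.113 to 0.172. The remaining pairs of groups gave 0.091 to 0.174. Alternatives were a pseudocount of 1 or 5, no filter, renewed quantile normalization, the compared groups only, the number as a block, and leaving out each library. Software was Python 3.11.15 with pandas 2.3.3, numpy 2.4.6, matplotlib 3.10.9, scipy 1.17.1 and pysam 0.24.0, and samtools 1.23.1.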

Additional observations from a re-analysis of the deposited data

Results flagged for a closer look

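In 2 receptor regions the change from C57BL/6 to Hivep3-/- cells differed between subsets by the interaction term. At Il7r -6.1 kb the change in iNKT2 exceeded that in iNKT17 by 2.60 ± 0.50 on the log2 scale (limma, adjusted p = 0.0255), with a range of 2.32 to 2.88 when single libraries were left out, and both Hivep3-/- iNKT2 libraries lay above both C57BL/6 ones. Their linear means (2.42 and 0.487) were under the level of 5 needed for a test within iNKT2. At Il12rb2 +8.8 kb the change in iNKT1 exceeded that in iNKT2 by 1.97 ± 0.66 (adjusted p = 0.0995), with a range of 1.49 to 2.44. Each Hivep3-/- library lay above the C57BL/6 ones in iNKT1 and below them in iNKT2 there, with linear iNKT2 means of 0.789 and 2.53, also under 5 and not tested within iNKT2. The group sizes of 2 were too small for a search for outlying libraries.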

How the results depend on the processing

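Of 81 results for 23 named regions, 11 lost a call under some setting. Of the 24 that were called, 0 changed sign under any setting, while 13 that were not called did so when a library was left out. With 5 added to the linear values, the called receptor regions in C57BL/6 numbered 8 (iNKT1 against iNKT2), 18 (iNKT1 against iNKT17) and 8 (iNKT2 against iNKT17), and in Hivep3-/- 6, 14 and 5, so that low regions carry many of the 3-fold calls. With 1 or 5 added, the counts were 0 for the genotypes in iNKT2 and 0 for the interactions of iNKT1 with iNKT2 and of iNKT2 with iNKT17. Without the filter on low values, 5 regions were called between genotypes in iNKT2 and 2 in iNKT17, and 3 and 2 in those interactions. After renewed quantile normalization the interaction counts were 0 for iNKT1 with iNKT2 and 1 for iNKT1 with iNKT17.

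Leaving out single libraries gave 20 to 22, 30 to 31 and 17 to 22 called regions for the C57BL/6 comparisons in the order above, 17 to 18, 23 to 27 and 12 to 16 for Hivep3-/-, and 0 to 0, 0 to 3 and 0 to 3 between genotypes in iNKT1, iNKT2 and iNKT17. The interactions had 0 to 1 (iNKT1 with iNKT2), 0 to 3 (iNKT1 with iNKT17) and 1 to 2 (iNKT2 with iNKT17). For iNKT1 with iNKT17 these were 2 without C57BL/6 iNKT17 replicate 2, 3 without Hivep3-/- iNKT17 replicate 1 and 1 without Hivep3-/- iNKT17 replicate 2, and for iNKT2 with iNKT17 2 without Hivep3-/- iNKT17 replicate 1. A library left alone in its group was assumed to vary like the others. The fit with the replicate number as a block gave 20, 31 and 20 C57BL/6 calls and changed none of the 12 counts of 3-fold calls, while regions passing at any fold between genotypes went from 10 to 15 in iNKT1, 28 to 35 in iNKT2 and 16 to 25 in iNKT17. Restricting the fit to the compared groups gave 21 such regions in iNKT1 (15 higher and 6 lower in Hivep3-/- cells), 21 in iNKT2 (16 and 5) and 8 in iNKT17 (8 and 0). The cause of these shifts was not tested.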
